A study of Homo sapiens with 6 samples.

Results

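The genes described here are 8 metallothioneins (MT1A, MT1E, MT1F, MT1G, MT1H, MT1M, MT1X and MT2A), the zinc-sensing transcription factor MTF1 and the zinc exporter SLC30A1. They were taken by symbol, and all 10 were found among the 23686 genes of the count and TPM tables. RNA sequencing was done on 6 libraries from HCC15 and A427, established human non-small cell lung carcinoma lines labelled wild type. Each line gave 3 libraries, 1 after LGR6 siRNA 2, 1 after LGR6 siRNA 4 and 1 after an siRNA labelled Tax, called the control here. All cells were grown in RPMI medium with 5% serum and collected 48 h after transfection, and the series asks which genes follow the receptor LGR6.

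Metallothioneins are small cytosolic proteins, rich in cysteine, that bind zinc, copper and cadmium. When free zinc rises, MTF1 binds short metal response elements in promoters and switches on the metallothionein genes and SLC30A1, whose product carries zinc out through the plasma membrane. Glucocorticoids also induce MT2A. The metallothionein genes lie in a row on chromosome 16, with pseudogenes between them, and their order along the chromosome in the RefSeq annotation is MT2A, MT1E, MT1M, MT1A, MT1F, MT1G, MT1H and MT1X.

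The promoters are shown because they hold the binding site through which zinc acts on this family. The core searched for was TGCACNC or TGCGCNC on either strand, and no 2 cores overlapped. RefSeq promoters of 300 bases, 250 before and 50 after the gene start, were at hand for 5 of the 10 genes on GRCh38.p14, a later build than the one used for counting. The 250 bases before the start are printed 5′ to 3′ on the gene's strand, with each core in capitals. They cover chr16:56608334-56608583 (plus strand) for MT2A, chr16:56669564-56669813 (plus) for MT1H, chr16:56682220-56682469 (plus) for MT1X and chr1:211579162-211579411 (minus) for SLC30A1.
MT2A: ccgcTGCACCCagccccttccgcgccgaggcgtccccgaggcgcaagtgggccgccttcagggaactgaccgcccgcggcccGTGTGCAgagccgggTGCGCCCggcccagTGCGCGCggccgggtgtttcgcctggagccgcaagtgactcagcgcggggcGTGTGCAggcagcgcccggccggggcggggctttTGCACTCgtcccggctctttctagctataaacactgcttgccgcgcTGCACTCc
MT1H: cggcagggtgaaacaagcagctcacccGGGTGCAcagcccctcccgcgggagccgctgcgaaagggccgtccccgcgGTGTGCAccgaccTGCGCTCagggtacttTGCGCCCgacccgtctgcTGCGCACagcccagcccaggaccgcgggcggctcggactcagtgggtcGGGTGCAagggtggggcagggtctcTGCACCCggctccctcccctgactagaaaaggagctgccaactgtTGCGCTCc
MT1X: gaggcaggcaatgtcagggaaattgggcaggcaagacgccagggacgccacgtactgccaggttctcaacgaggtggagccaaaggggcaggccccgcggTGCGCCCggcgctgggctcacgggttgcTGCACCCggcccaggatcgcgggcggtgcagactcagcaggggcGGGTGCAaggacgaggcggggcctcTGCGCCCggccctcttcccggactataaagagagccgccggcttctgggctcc
SLC30A1: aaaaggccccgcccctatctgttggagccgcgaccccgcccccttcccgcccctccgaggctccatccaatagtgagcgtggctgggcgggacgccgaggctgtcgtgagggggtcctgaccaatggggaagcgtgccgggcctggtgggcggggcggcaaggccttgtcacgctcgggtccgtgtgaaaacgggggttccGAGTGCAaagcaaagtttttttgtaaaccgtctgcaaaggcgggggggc
Over the 300 bases, MT2A and MT1H had 8 cores each, a number reached by 0.0199% of the 35116 promoters in the table. MT1X had 4, which 0.601% of promoters reached, and SLC30A1 had 2, which 8.6% reached. MTF1 had 0 cores, and 29.6% of all promoters had at least 1. The other cores of MT2A and SLC30A1, 1 each, lie after the start. A TATAAA motif began 29 bases before the start in MT2A and 30 bases before it in MT1X. A match in these letters is a description and not a measured binding site.

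**Figure D1:**
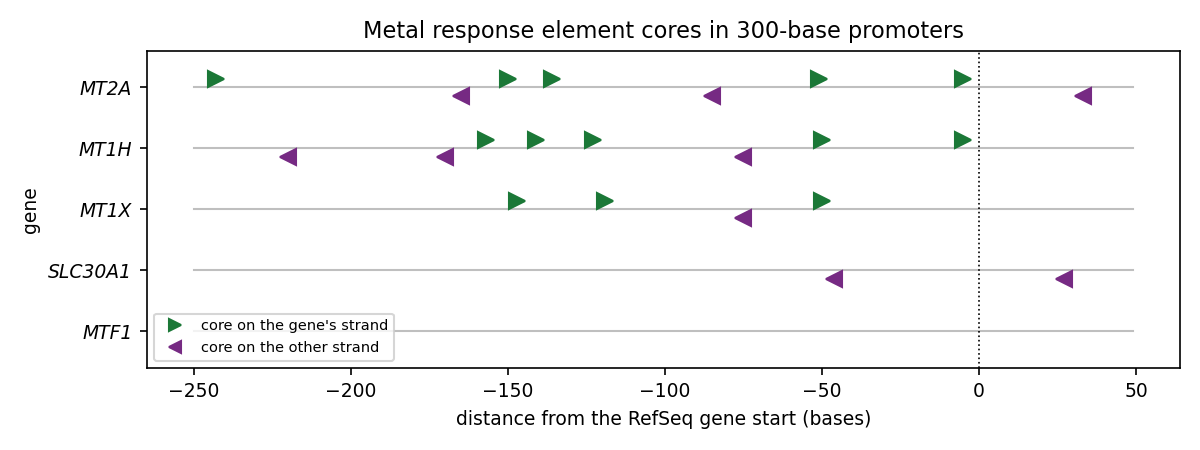
Positions of metal response element cores (triangles, pointing along their strand) against distance from the RefSeq gene start in bases, for the 5 genes with a promoter at hand. MT2A and MT1H have 8 cores each, MT1X 4, SLC30A1 2 and MTF1 0.

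Total counts per library were 25546438 to 28987906 reads, and 14481 genes had at least 10 reads in at least 2 libraries, the condition for testing. LGR6, the silenced gene, had 39 reads with siRNA 2, 77 with siRNA 4 and 257 in the control of HCC15. In A427 it had 0 reads with either siRNA and 5 in the control. No 2 libraries shared both line and siRNA, and the labels do not say whether they came from separate cultures. The edgeR quasi-likelihood test used for each siRNA therefore measured the spread as the disagreement of siRNA effects between the lines, not as a spread between cultures. Of 5 epithelial markers, 5 in HCC15 and 4 in A427 reached 1 TPM (a level scaled for transcript length and library size). The lung marker SFTPB was at 0 in every library, and NKX2-1 was at 0 in HCC15 and at most 0.11 TPM in A427. NAPSA, the other lung marker listed, was at 0.57 to 1.36 TPM in A427 and at most 0.31 TPM in HCC15. Of the squamous markers, SOX2 was at 1.5 to 2.93 TPM in A427 and at most 0.06 TPM in HCC15. TP63 and KRT5 were at 0 in HCC15 and at most 0.07 TPM in A427. The summed leukocyte markers were 1.78 to 4.18 TPM in HCC15 and 25.35 to 32.49 TPM in A427, of which CD68, a lysosomal protein, gave all in HCC15 and 23.8 to 31.3 TPM in A427. PTPRC (CD45), which defines leukocytes, was at 0 in HCC15 and at 1.22 to 1.58 TPM in every A427 library, from 72 to 106 reads. CD3E and LYZ were at 0 in every library. The part of these markers in the results below was not tested.

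A427 had reads of fewer metallothionein genes than HCC15. All 8 had reads in every HCC15 library, whereas MT1A, MT1E, MT1G, MT1H and MT1M were at 0 reads in every A427 library, and of the 8 A427 had reads of MT2A, MT1X and MT1F only. The genes with no A427 reads are not a single block of the chromosome, because MT1F lies between MT1A and MT1G. In bulk RNA, fewer cells with an RNA and less RNA per cell cannot be told apart.

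MT2A, the main human metallothionein in many tissues, had 1658 TPM with siRNA 2, 1267 TPM with siRNA 4 and 1522 TPM in the control of HCC15. In A427 it had 25.3 TPM with siRNA 2, 51.3 TPM with siRNA 4 and 38.0 TPM in the control. Every HCC15 library stood far above every A427 library, and over each line's 3 libraries the CPM (reads scaled by library size) was 41.0 times as high in HCC15. The edgeR log2 fold change of HCC15 over A427 was 5.37 (SE 0.22, adjusted p = 1.4e-07).

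MT1E, an MT1 isoform gene, had 786 TPM with siRNA 2, 535 TPM with siRNA 4 and 701 TPM in the control of HCC15, and no reads in A427. Against the limit of 3 reads over the A427 libraries, its level was at least 2849-fold higher in HCC15. MT1A had 181, 161 and 183 TPM with siRNA 2, with siRNA 4 and in the control of HCC15, and MT1M had 146, 112 and 142 TPM in the same order of libraries. By the same limit, MT1A was at least 469-fold higher and MT1M at least 440-fold higher in HCC15. These are lower bounds for genes with no read in A427.

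MT1G had 122 TPM with siRNA 2, 71.3 TPM with siRNA 4 and 123 TPM in the control of HCC15. MT1H was the lowest of the family there, with 10.8 TPM with siRNA 2, 10.6 TPM with siRNA 4 and 9.93 TPM in the control, from 28, 28 and 26 reads. MT1G was at least 282-fold and MT1H at least 28.2-fold higher in HCC15 than in A427, where neither had a read. The MT1H bound, from 82 reads over the HCC15 libraries, lies below the 41.0-fold of MT2A. Its 0 in A427 therefore cannot be told apart from a difference as large as that of MT2A. MT1H thus had the highest number of metal response element cores in the bases printed (8, beside 7 in MT2A, with which it ties over the 300 bases) and the lowest level of the family in HCC15.

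MT1X had 196 TPM with siRNA 2, 99.95 TPM with siRNA 4 and 144 TPM in the control of HCC15. In A427 it had 12.2 TPM with siRNA 2, 23.9 TPM with siRNA 4 and 17.2 TPM in the control. The lines did not overlap, and CPM was 8.70 times as high in HCC15 (log2 fold change 3.08, SE 0.29, adjusted p = 1.7e-05). MT1F had 93.7 TPM with siRNA 2, 83.04 TPM with siRNA 4 and 98.0 TPM in the control of HCC15, against 10.6, 14.6 and 11.9 TPM in the same order in A427. It too was higher in every HCC15 library, by 7.84 times (log2 fold change 2.97, SE 0.19, adjusted p = 2.0e-06).

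**Figure D2:**
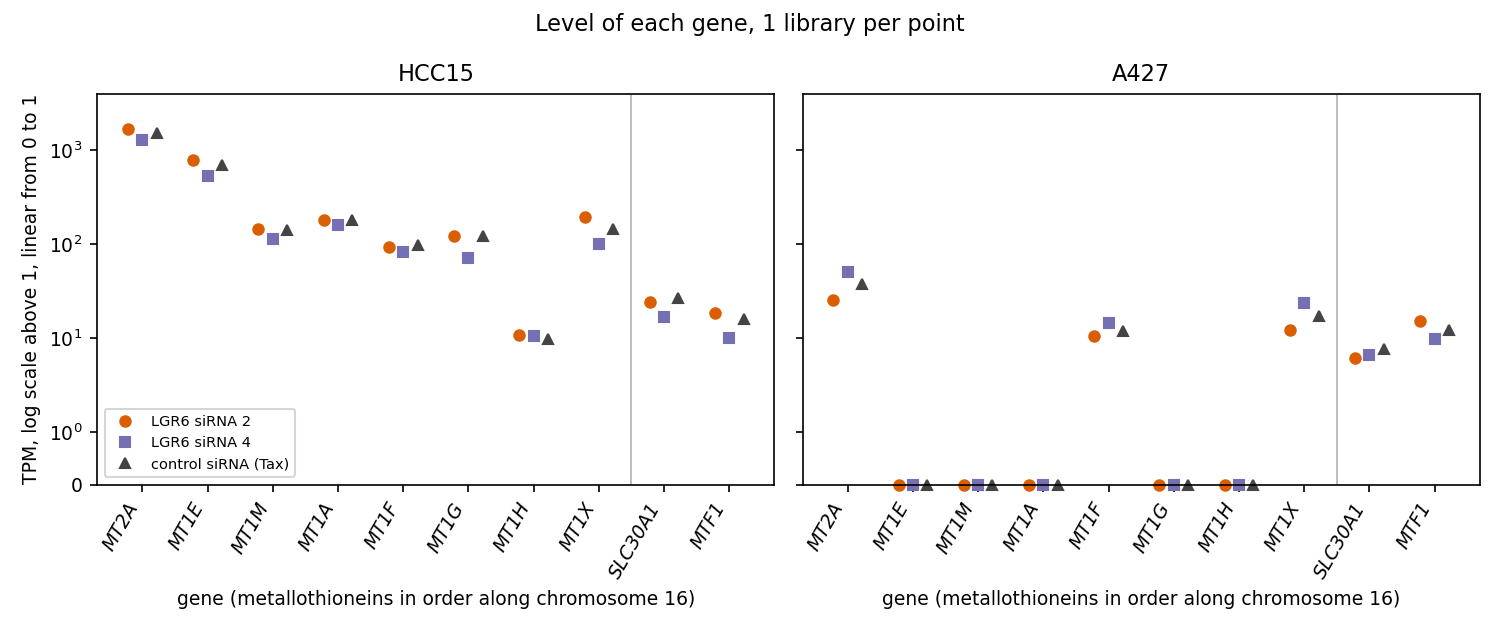
TPM of each gene (log axis above 1, linear from 0 to 1) in HCC15 (left) and A427 (right), 1 point per library, with the metallothioneins in their order along chromosome 16. MT1E, MT1M, MT1A, MT1G and MT1H sit at 0 in A427, while MT2A is highest in both lines.

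Within HCC15 the order of levels was MT2A, then MT1E, with no overlap between them or with the other genes. MT1A at 161 to 183 TPM overlapped MT1X at 99.95 to 196 TPM, so these neighbours did not differ beyond the range over the libraries. The ranges of MT1M, MT1G and MT1F likewise overlapped those of their neighbours in that order, although MT1M was above MT1G within each HCC15 library. MT1H stood below all of them. Within A427 MT2A was highest, and MT1X at 12.2 to 23.9 TPM overlapped MT1F at 10.6 to 14.6 TPM. Within each A427 library, however, MT1X was above MT1F.

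Although A427 had reads of fewer of the genes, MT2A made up a like share of the family in both lines. It was 51.9%, 54.1% and 52.1% of the summed TPM of the 8 genes with siRNA 2, with siRNA 4 and in the control of HCC15, against 52.6%, 57.1% and 56.6% in A427. MT1E gave 22.9% to 24.6% in HCC15. In A427 the rest was MT1X at 25.3% to 26.6% and MT1F at 16.3% to 22.1%. The summed level was 3193, 2341 and 2922 TPM with siRNA 2, with siRNA 4 and in the control of HCC15, and 48.2, 89.8 and 67.2 TPM in A427.

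**Figure D3:**
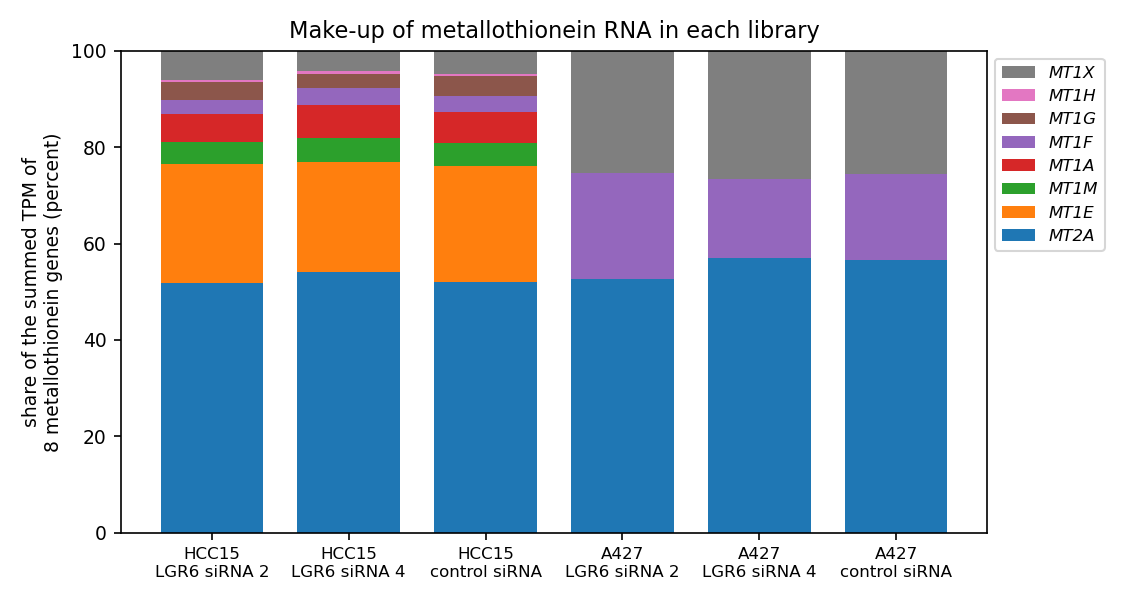
Share of the summed TPM of the 8 metallothionein genes (percent, stacked bars) taken by each gene in each library. MT2A takes 51.9% to 57.1% of each bar, and MT1E is the next share in HCC15 but has no reads in A427.

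SLC30A1, the plasma membrane zinc exporter, followed the family in being higher in HCC15. It had 24.1 TPM with siRNA 2, 16.9 TPM with siRNA 4 and 27.0 TPM in the control of HCC15, and 6.25, 6.63 and 7.73 TPM in the same order in A427. No library of one line reached the other, and HCC15 had 3.50 times the CPM (log2 fold change 1.80, SE 0.15, adjusted p = 9.4e-06). MTF1, the sensor itself, had 18.4 TPM with siRNA 2, 10.1 TPM with siRNA 4 and 15.9 TPM in the control of HCC15, and 15.2, 9.82 and 12.1 TPM in A427. Its ranges over the lines overlapped, although HCC15 was higher with each siRNA, and the fold was 1.28 (log2 fold change 0.34, SE 0.11, adjusted p = 0.0186). That call was lost without the A427 control library (adjusted p = 0.12), without the HCC15 control library (adjusted p = 0.125) and with limma on log2(TPM + 1) (adjusted p = 0.138).

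All 10 genes thus passed the edgeR test between the lines, in the direction of HCC15. Over all 14481 genes tested 76.5% passed it, and 37.2% passed it as higher in HCC15. The 5 genes at 0 in A427 entered the test only through their HCC15 reads, so they had to differ, and the count of 10 is no measure of the group.

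Neither LGR6 siRNA took any of the 10 genes past the test against control. With siRNA 2 against control, 0 of the 10 genes passed the test, while 7.62% of all genes tested did. Their fitted log2 changes were positive for 3 and negative for 7, with a median of -0.10, against -0.01 over all genes tested. With siRNA 4 against control, 0 of the 10 passed and 12.5% of all genes did. Fitted changes were positive for 2 and negative for 8, with a median of -0.23, against -0.01 over all genes. Both comparisons use the same control libraries. For the 5 genes with no reads in A427, each of these fitted values rests on 1 HCC15 library per arm, and the spread is borrowed from other genes. Their not passing therefore says nothing about them, and the counts bear on the 5 genes read in both lines. For these the fit averages the lines and counts their disagreement as spread. A change in HCC15 alone, the line with more LGR6 reads, or opposite changes in the lines could thus be missed. With siRNA 4, MT2A was at 0.865 times control in HCC15 and 1.31 times control in A427, with a fitted log2 change of 0.02.

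With both LGR6 siRNAs pooled against control, 0 of the 10 genes passed in edgeR, where 0% of all genes passed. At an unadjusted p under 0.05 edgeR had 1512 genes, and none of the 10 was among them. DESeq2 called 389 genes, limma on log2(TPM + 1) called 1 and edgeR with a replicate block by siRNA number called 1298, and these too called 0 of the 10. SLC30A1 had the largest change relative to its error, a log2 fold change of -0.36 (SE 0.18, adjusted p = 0.565).

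MTF1 was the one member to pass the test between the siRNAs, lower with siRNA 4 than with siRNA 2. Against the control of its line, the ratio with siRNA 2 was 1.08 in HCC15 and 1.23 in A427. With siRNA 4 it was 0.669 in HCC15 and 0.811 in A427. In each line the siRNA 4 library was therefore the lowest, the control lay between and the siRNA 2 library was the highest. Between siRNA 4 and siRNA 2 the fitted log2 fold change was -0.65 (SE 0.13, adjusted p = 0.0147), the sole pass among the 10 genes. Over all genes 16.5% passed this comparison and 8.84% passed it as lower with siRNA 4. The count of 1 in 10 is near these shares and is no result about the group. The call was lost when the A427 siRNA 2 library was left out (adjusted p = 0.0544), and likewise for the siRNA 2 library (0.0744) or the siRNA 4 library (0.123) of HCC15. Against control, MTF1 did not pass with siRNA 4 (log2 fold change -0.44, SE 0.13, adjusted p = 0.0639) or with siRNA 2 (0.20, SE 0.13, adjusted p = 0.38). Between the siRNAs, the 5 genes with no reads in A427 compare single HCC15 libraries, so their not passing says nothing about them.

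SLC30A1 was highest in the control library of both lines. Its ratio to control was 0.831 (95% counting interval 0.743 to 0.929) with siRNA 2 and 0.655 (0.579 to 0.741) with siRNA 4 in HCC15. In A427 it was 0.793 (0.634 to 0.989) with siRNA 2 and 0.856 (0.690 to 1.06) with siRNA 4. These intervals, exact binomial on TMM-scaled library sizes, compare 1 library with another and cover counting error only. All 4 ratios were below 1, but the fitted changes did not pass the test. They were -0.44 with siRNA 4 (SE 0.18, adjusted p = 0.151) and -0.29 with siRNA 2 (SE 0.18, adjusted p = 0.365).

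MT2A was lower with siRNA 4 than with siRNA 2 in the HCC15 libraries and higher in the A427 libraries. In HCC15, with 3722 reads with siRNA 4, 4811 with siRNA 2 and 4409 in the control, its ratio of siRNA 4 to siRNA 2 was 0.860 (0.824 to 0.898). In A427, with 143 reads with siRNA 4, 67 with siRNA 2 and 116 in the control, that ratio was 2.03 (1.51 to 2.75). Both counting intervals exclude 1, on opposite sides. Against control, the HCC15 ratio was 1.01 (0.966 to 1.05) with siRNA 2 and 0.865 (0.828 to 0.904) with siRNA 4. In A427 it was 0.643 (0.469 to 0.876) with siRNA 2 and 1.31 (1.01 to 1.68) with siRNA 4. Fitted over both lines, the change was -0.16 with siRNA 2 (SE 0.23, adjusted p = 0.72) and 0.02 with siRNA 4 (SE 0.24, adjusted p = 0.97).

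MT1X showed the same split. Its ratio of siRNA 4 to siRNA 2 was 0.574 (0.494 to 0.665) in HCC15, from 273 and 529 reads, and 1.96 (1.25 to 3.15) in A427, from 62 and 30 reads. Against control it was 1.26 (1.10 to 1.44) with siRNA 2 and 0.723 (0.617 to 0.846) with siRNA 4 in HCC15. In A427 it was 0.682 (0.418 to 1.10) with siRNA 2 and 1.34 (0.906 to 1.99) with siRNA 4, where both counting intervals include 1. MT1F had intervals that include 1 in each of these ratios in both lines. Its ratio of siRNA 4 to siRNA 2 was 0.997 (0.842 to 1.18) in HCC15 and 1.38 (0.854 to 2.26) in A427.

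**Figure D4:**
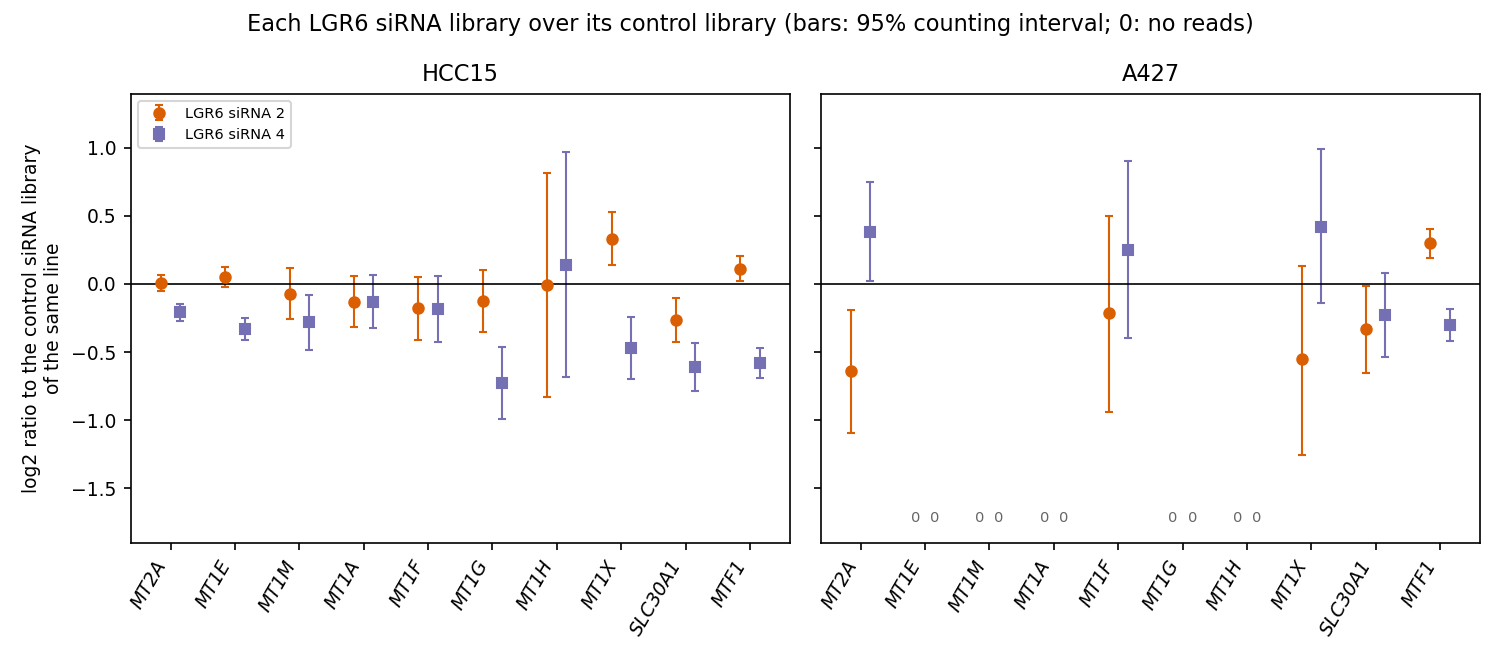
Log2 ratio of each LGR6 siRNA library to the control library of its line, in HCC15 (left) and A427 (right), with 95% counting intervals. A printed 0 marks a gene with no reads, for which there is no ratio. MTF1 is above its control with siRNA 2 and below it with siRNA 4 in both lines, while MT2A and MT1X with siRNA 4 are below control in HCC15 and above it in A427.

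Of the 5 genes read in HCC15 alone, MT1G, MT1E and MT1M had counting intervals below 1 with siRNA 4 against control. MT1G had a ratio to control of 0.605 (0.502 to 0.727) with siRNA 4 and 0.916 (0.781 to 1.07) with siRNA 2. MT1E had 0.795 (0.752 to 0.840) with siRNA 4 and 1.04 (0.987 to 1.09) with siRNA 2. MT1M had 0.823 (0.714 to 0.947) with siRNA 4 and 0.953 (0.835 to 1.09) with siRNA 2. MT1A did not share this, at 0.914 with either siRNA, and MT1H had too few reads for a close estimate, at 1.10 (0.624 to 1.96) with siRNA 4. Since A427 had no reads of these genes, no second line repeats their values, and these ratios compare single libraries with no test of the siRNAs. The share of all genes with such intervals was not computed, so these intervals are no result about the group.

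The summed reads of the 8 metallothioneins, scaled by library size, were at a log2 ratio to control of 0.02 with siRNA 2 and -0.27 with siRNA 4 in HCC15. In A427 they were at -0.52 with siRNA 2 and 0.37 with siRNA 4. The test of a different response to the siRNAs in the 2 lines had a value for 5 of the 10 genes and passed for 0 of them, with 0% of all genes passing in edgeR. In that edgeR test 78 of all genes had an unadjusted p under 0.05 (none of the 5 members with a value), and DESeq2 called 0. It averages both siRNAs, and for MT2A the difference was -0.06 (SE 0.61, adjusted p = 1.0). A difference between the lines in siRNA 4 against siRNA 2 leaves no residual degrees of freedom and was not tested.

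Reads of these genes can be shared with near-identical copies, and the deposited counts divide such reads by estimation. Coding sequences of the 8 metallothioneins (GENCODE release 29) were 88.7% to 94.6% identical between pairs, and each had 20 cysteine codons. Of all 50-base stretches of the annotated transcripts, 18.3% in MT1X, 16.5% in MT1G and 15.8% in MT1H also occurred in another gene. The share was 9.87% in MT1M, 7.1% in MT1E, 5.76% in MT1A, 3.02% in MT2A, 1.22% in MT1F and 0.64% in MTF1, and SLC30A1 had none. At 100 bases it was 11.3% in MT1X, 1.39% in MT1H and 0 in the other genes. At that length the 1 other gene for MT1X was not a metallothionein by its symbol. Counts were not whole in 3 of 6 libraries for MT1E and MT1M, in 2 for MT1G, MT1H, MT1X and MT2A, in 1 for MT1A and in none for MT1F, MTF1 and SLC30A1. Every count that was not whole came from HCC15. For MT1A, MT1E, MT1G, MT1H and MT1M the A427 counts of 0 are whole by nature, so only the 3 HCC15 libraries bear on sharing. Over all genes, 5.75% to 6.29% of the counts in a library were not whole. Levels of single MT1 genes are uncertain for this reason, but neither the shares nor the counts that were not whole measure by how much. The shares pool all annotated transcripts of a gene, so they depend on transcript length and are not directly comparable between genes.

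Of 10 other metallothionein genes and pseudogenes, 8 had a row in the table, 4 of these were at 0 in every library and 0 had enough reads to test. MT3, a metallothionein known from brain, had up to 12 reads in HCC15 and none in A427. MT1DP, a pseudogene, had up to 11 reads in HCC15 and up to 4 in A427. Added to the family's reads, all these rows made up at most 2.84% of the total in any library.

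Of 9 further zinc exporters of the SLC30 family, 6 were tested. With siRNA 2, 1 was higher and 1 lower, where 7.62% of all genes passed, and with siRNA 4, 0 were higher and 1 lower, where 12.5% passed. With siRNA 2, SLC30A5, which carries zinc into the secretory pathway, rose (log2 fold change 0.73, SE 0.13, adjusted p = 0.0163). SLC30A7, which carries zinc into the Golgi, fell with siRNA 2 (-0.61, SE 0.12, adjusted p = 0.0246) and with siRNA 4 (-0.53, SE 0.12, adjusted p = 0.0288). Each siRNA thus moved SLC30A7 in the same direction, with 16.8 TPM with siRNA 2, 16.4 TPM with siRNA 4 and 25.3 TPM in the control of HCC15, and 10.1, 10.1 and 14.4 TPM in A427. The median over the 6 exporters was 0.11 with siRNA 2 and -0.01 with siRNA 4, beside -0.01 and -0.01 over all genes.

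Of 14 zinc importers of the SLC39 family, 11 were tested. With siRNA 2, 0 rose and 3 fell, namely SLC39A13 (-0.83, SE 0.15, adjusted p = 0.0185), SLC39A9 (-0.70, SE 0.13, adjusted p = 0.0187) and SLC39A14 (-0.52, SE 0.12, adjusted p = 0.0335). With siRNA 4, 0 rose and SLC39A9 alone fell (-1.28, SE 0.13, adjusted p = 0.0015). SLC39A9, a zinc carrier of the Golgi and plasma membrane, had 25.1 TPM with siRNA 2, 16.5 TPM with siRNA 4 and 40.6 TPM in the control of HCC15, and 31.4, 23.8 and 47.4 TPM in A427. Both lines thus had the same order of libraries for it. Over all genes 7.62% passed with siRNA 2 and 12.5% with siRNA 4, and 1 of 11 importers is near the second share. The median over the importers was -0.13 with siRNA 2 and 0.15 with siRNA 4.

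Between siRNA 4 and siRNA 2, 3 of the 11 importers were higher and 2 lower with siRNA 4, where 16.5% of all genes passed and 8.84% passed as lower. The higher ones were SLC39A10 (1.08, SE 0.20, adjusted p = 0.0106), SLC39A13 (0.76, SE 0.15, adjusted p = 0.0142) and SLC39A14 (0.58, SE 0.12, adjusted p = 0.0142). SLC39A14 carries zinc and iron into cells. Between the lines, SLC39A4, the importer used for dietary zinc in the gut, was at 9.14 to 11.3 TPM in HCC15 and 0.12 to 0.29 TPM in A427. SLC39A8, an importer of zinc and manganese, was at 39.0 to 75.03 TPM in HCC15 and 0.89 to 1.41 TPM in A427. Of the importers, 2 were higher and 6 lower in HCC15, and of the exporters 5 were higher and 1 lower, beside 76.5% of all genes passing and 37.2% passing as higher. SLC39A4, counted as higher, had 3 to 8 reads in the A427 libraries. It entered the test only through its HCC15 reads, so it had to differ.

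**Figure D5:**
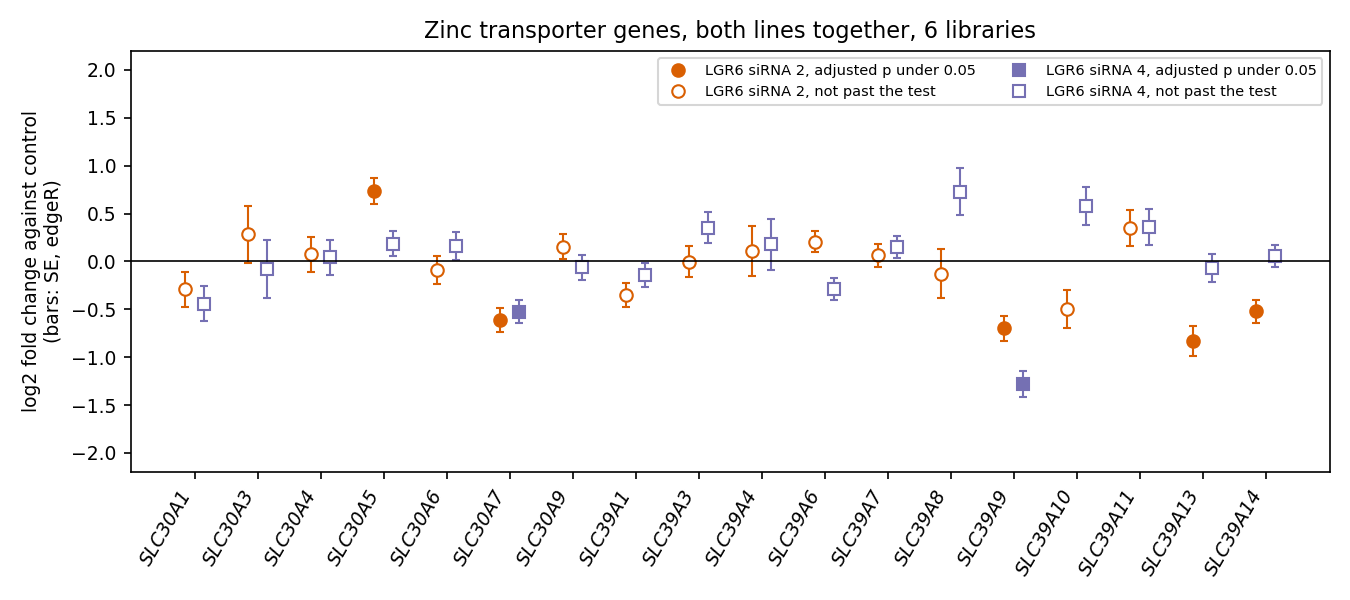
Fitted log2 fold change against control (bars, SE) with LGR6 siRNA 2 and LGR6 siRNA 4 over both lines, for SLC30A1 and the other zinc transporters tested. Filled points passed the edgeR test. SLC30A7 and SLC39A9 fell with each siRNA, and SLC30A1 is below 0 with each without passing.

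Of 13 genes of copper and iron handling, all were tested. With siRNA 2, FTL, the ferritin light chain that stores iron, rose (0.85, SE 0.12, adjusted p = 0.0083), and SLC31A1, the copper importer, fell (-0.88, SE 0.17, adjusted p = 0.0209). With siRNA 4 FTL rose (0.63, SE 0.12, adjusted p = 0.014) and SLC31A1 fell (-0.61, SE 0.17, adjusted p = 0.049), and no other gene of the list passed in either comparison. These 2 of 13 stand beside 7.62% of all genes with siRNA 2 and 12.5% with siRNA 4, and are near the background for siRNA 4. SLC31A1 had 43.0 TPM with siRNA 2, 46.9 TPM with siRNA 4 and 89.5 TPM in the control of HCC15, and 6.75, 7.82 and 9.63 TPM in A427. Both LGR6 siRNA libraries of each line were below its control. The list's median was 0.22 with siRNA 2 and 0.16 with siRNA 4.

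Of 9 genes for the glucocorticoid receptor and its targets, 8 were tested, with 0 higher and 1 lower with siRNA 2 and 0 higher and 3 lower with siRNA 4. Over all genes 7.62% and 12.5% passed, so 1 of 8 is near the background. FKBP5, a chaperone induced by glucocorticoids, fell with siRNA 2 (-1.17, SE 0.16, adjusted p = 0.0077). With siRNA 4 KLF9 fell (-0.95, SE 0.24, adjusted p = 0.0353), as did NR3C1, the receptor (-0.53, SE 0.14, adjusted p = 0.042). TSC22D3 was the third of the genes counted as lower. It had 20.3 TPM with siRNA 2, 11.5 TPM with siRNA 4 and 36.2 TPM in the control of HCC15 and no reads in A427, so it compares single HCC15 libraries, no second line bears on it, and its call is no test of siRNA 4. The list's median was -0.06 with siRNA 2 and -0.26 with siRNA 4, beside -0.01 and -0.01 over all genes.

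Of 10 oxidative and heavy metal stress genes, all tested, 0 passed with siRNA 2 and 1 passed with siRNA 4, near the 12.5% of all genes. GCLC, an enzyme of glutathione synthesis, rose with siRNA 4 (0.61, SE 0.12, adjusted p = 0.0174). With siRNA 4 the fitted values of 9 of the 10 were positive, with a median of 0.49 beside -0.01 over all genes. Among the positive ones, HMOX1 and SRXN1 were above control in HCC15 but below it in A427 with siRNA 4. Between siRNA 4 and siRNA 2, TXNRD1, a thioredoxin reductase, was higher with siRNA 4 (1.17, SE 0.18, adjusted p = 0.0051). Between the lines, 6 of the 10 were higher and 2 lower in HCC15, beside 76.5% of all genes passing. The lower ones were HMOX1, heme oxygenase (-1.85, SE 0.35, adjusted p = 0.0012), and DNAJB1, a heat shock chaperone (-0.65, SE 0.13, adjusted p = 0.0021). GCLC, GCLM, NQO1 and SRXN1, enzymes of antioxidant defence, were higher in HCC15 by log2 fold changes of 3.43 (SE 0.11, adjusted p = 3.9e-08), 3.15 (SE 0.18, adjusted p = 1.1e-06), 2.38 (SE 0.10, adjusted p = 1.7e-07) and 2.16 (SE 0.13, adjusted p = 1.2e-06), in that order.

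The genes whose levels ran most like MT2A over the 6 libraries, after each line's mean was taken off, were BCORL1 (r = 0.987), TTC39C (0.981), FBXO18 (0.980), IRF1 (0.978) and TCF7L1 (0.977). For SLC30A1 they were RFNG (r = 0.998), SPAG1 (0.998), ANAPC16 (0.997), CCBL2 (0.997) and ZC3HAV1L (0.994). They were ranked among 9926 genes whose mean CPM was 10 or more, by Pearson correlation of log2 values. Libraries of both lines share 3 siRNAs, and the correlations are descriptions of 6 points. With each line's mean taken off, fewer than 6 values are free, and the highest of 9926 correlations are high by selection. Among the members, MT2A and SLC30A1 had r = 0.40, MT2A and MTF1 r = -0.40, and MTF1 and SLC30A1 r = 0.47. MT1E had r = 0.78 with MTF1, 0.74 with SLC30A1 and 0.26 with MT2A, and it varied in the HCC15 libraries alone.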

How the data were processed

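Per the submitters' processing notes, FastQC 0.11.1 was used for read quality, STAR 2.5.3a for alignment and RSEM 1.3.3 for quantification, on hg19. The gene annotation was not given in the sources used here. Per the labels' protocols, RNA was purified on columns with DNase treatment and libraries were made with an mRNA kit. The authors deposited a table of expected counts, which estimate how reads shared between genes divide, and a table of TPM. Expected counts were rounded to whole numbers for the tests, and the deposited TPM gave levels per length.

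The 14481 of 23686 genes that reached 10 reads in 2 or more of the 6 libraries were tested with edgeR 4.0.16 in R 4.3.3: TMM scaling, the quasi-likelihood test, Benjamini-Hochberg adjustment over all tested genes and a threshold of 0.05. Each siRNA, the siRNAs against each other and the lines were compared in a fit of line plus siRNA. Both siRNAs together used line plus arm, and the difference between lines used line by arm. All p-values of gene fits come from edgeR unless another tool is named. Alternatives were DESeq2 1.42.0, limma 3.58.1 on log2 TPM with a pseudocount of 1 or 0.1, other size factors, no filter, a replicate block and each library left out. By the labels, a given siRNA number is 1 reagent used in both lines. The edgeR comparisons were also run on simulated counts with the same fixed spread for every gene. Those counts did not copy the disagreement between the lines, so they do not show how well the tests do on these libraries. Ratios between 2 libraries have 95% exact binomial intervals, which cover counting error only, as reads have no molecular identifiers. A count of 0 was taken to allow 3 reads over a line's 3 libraries.

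All 10 members and LGR6 were named, and of each gene list up to 4 genes past the threshold or 2 not past it in a comparison. The members, lists and alternatives were chosen with earlier results of these data known. Ratios of summed metallothionein reads in each line apart were added after seeing the data. Promoter sequences and gene order are from RefSeq (GRCh38.p14), coding sequences and shared stretches from GENCODE release 29, read with Python 3.11.15 and Biopython 1.88.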

Additional observations from a re-analysis of the deposited data

Results flagged for a closer look

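For the following genes the log2 ratio between libraries had opposite signs in the lines, with 1 library per line and siRNA. None of these differences was tested, since 1 library on each side leaves no residual degrees of freedom. Each value is the log2 ratio in HCC15 minus that in A427.

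For MT2A the difference was 0.65 for siRNA 2 over control (log2 ratio 0.01 in HCC15 and -0.64 in A427). It was -0.59 for siRNA 4 over control (-0.21 in HCC15 and 0.38 in A427). For siRNA 4 over siRNA 2 it was -1.24 (-0.22 in HCC15 and 1.02 in A427).

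For MT1X it was 0.89 for siRNA 2 over control (0.33 in HCC15 and -0.55 in A427), -0.89 for siRNA 4 over control (-0.47 in HCC15 and 0.42 in A427) and -1.78 for siRNA 4 over siRNA 2 (-0.80 in HCC15 and 0.97 in A427). Of the metallothioneins, MT1X has the largest share of 50-base stretches also found in another gene, 18.3%. At 100 bases the 1 other gene was not a metallothionein by its symbol. The part of this sharing was not tested.

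For MT1F it was -0.44 for siRNA 4 over control (-0.18 in HCC15 and 0.25 in A427). For siRNA 4 over siRNA 2 it was -0.47 (-0.00495 in HCC15 and 0.46 in A427), where the HCC15 value is so near 0 that its sign carries nothing. The A427 values come from 45 reads with siRNA 4, 31 with siRNA 2 and 40 in the control of A427. For SLC30A1 it was -0.45 for siRNA 4 over siRNA 2 (-0.34 in HCC15 and 0.11 in A427).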

How the results depend on the processing

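Of the genes with a value, 0 passed for each siRNA, for both siRNAs and for the difference between lines under every alternative run. The 5 genes read in HCC15 alone had no value for the difference between lines, for any comparison with control without the HCC15 control library, or for a single siRNA without its HCC15 library. Leaving out a control library could not be fitted for that difference. Between siRNA 4 and siRNA 2 the number was 0 to 1 when each library was left out. Between the lines it was 9 under limma and 9 to 10 with a library left out. The replicate block by siRNA number called 0 of the 10. The fitted log2 changes below crossed 0, and the cause was not tested. Values within 0.005 of 0 were not counted. With siRNA 2, MT1H was 0.0502 in DESeq2, 0.0185 with RLE size factors and 0.054 and 0.0587 in limma with a pseudocount of 1 and 0.1. In limma MT1M was 0.022 and 0.0222, and MT1X -0.0117 and -0.025. With siRNA 4, MT1F was 0.0149 in DESeq2 and 0.0184 and 0.0265 in limma, and MT1X was 0.0088 in DESeq2. Between the siRNAs MT1H was -0.0099 and -0.0107 in limma. The difference between lines for MT2A was 0.007 in limma with 0.1.

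With each library left out, the siRNA 2 change ranged over -0.87 to 0.46 for MT1X and -0.84 to 0.11 for MT2A. The siRNA 4 change ranged over -0.19 to 0.27 for MT1F, -0.58 to 0.72 for MT1X and -0.32 to 0.58 for MT2A. For both siRNAs the ranges were -0.30 to 0.0897 for MT2A, -0.24 to 0.0661 for MTF1, -0.19 to 0.0428 for MT1F, -0.33 to 0.0539 for MT1E and -0.01 to 0.14 for MT1H. For siRNA 4 against siRNA 2 they were -0.12 to 0.84 for MT2A, -0.70 to 0.68 for MT1X and -0.33 to 0.0924 for SLC30A1. For the difference between lines they were -0.48 to 0.54 for MT2A, -0.61 to 0.11 for MTF1, -0.43 to 0.0309 for MT1F, -0.49 to 0.54 for MT1X and -0.33 to 0.0084 for SLC30A1. Where an arm is left with 1 library, it is assumed to vary like the others.

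Over all genes, passes numbered 1104 with siRNA 2 and 1814 with siRNA 4, and 676 and 1145 in limma with a pseudocount of 0.1. Without the HCC15 control library they numbered 4 and 118, and without the A427 control library 173 and 397. The siRNA 2 count was 217 without the HCC15 and 708 without the A427 siRNA 2 library, and the siRNA 4 count 456 without the HCC15 siRNA 4 library. For siRNA 4 against siRNA 2 the count was 2395, and 646 to 1359 without either control, the HCC15 siRNA 2 or the HCC15 siRNA 4 library. MT1F and MT1X had 30 to 62 reads in A427 libraries, and changes inside their counting intervals were not detectable there.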
